A study of Drosophila melanogaster with 34 samples.

Results

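The genes described here are 47 protein-coding genes of Drosophila melanogaster that carry only an annotation number (CG followed by digits) as their symbol, and whose RNA was low in embryos that lost the activity of the transcription factor Zelda late, during nuclear cycles 13 to 14 (NC13-14). They were chosen on the group means of CPM, the count of a gene scaled by the total of its library. A gene had to reach a mean of at least 5 CPM both in wild-type embryos lit in NC13-14 and in unlit CRY2-ZLD embryos. Its mean in CRY2-ZLD embryos lit in NC13-14 had to lie below both of these by at least 1.5 on the log2 scale, with 0.5 CPM added. A CG symbol belongs to 6043 of the 17491 genes counted, 1383 of these reach the level in both groups, and 47 of the 1383 are lower by the stated difference.

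Zelda is a maternally supplied zinc-finger protein and a pioneer factor, able to bind its sites in closed chromatin. It is known for opening regulatory regions of genes that the early fly embryo switches on when control passes from maternal to zygotic RNA, first in a minor wave in the last syncytial cycles and then in a major wave in nuclear cycle 14, when the blastoderm becomes cellular. CRY2 is a light-sensitive plant protein, and its fusion to Zelda was used here so that blue light inactivates Zelda. A CG number is given to a predicted gene and stays its symbol until the gene is characterised, so no role is stated for most of these genes.

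RNA with poly(A) tails was sequenced from 34 single embryos in 9 groups. All embryos carried His2AvRFP, a red fluorescent histone used to follow the nuclear cycles, and all were collected 30 min into nuclear cycle 14. The growth temperature was 25 °C in all groups. CRY2-ZLD; His2AvRFP embryos received 488 nm light in NC10-14 (3 embryos), NC10-12 (4), NC13-14 (4) or NC14 (4), and 4 further CRY2-ZLD embryos received no light. The embryos called wild type carried His2AvRFP alone and were lit in the same windows (3, 4, 4 and 4 embryos), and unlit wild type is not analysed here. The labels do not name the promoter of the CRY2-ZLD allele or the parents of each embryo. The p-values measure the spread between single embryos, and in whole-embryo RNA fewer expressing cells and less RNA per cell cannot be told apart.

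Library totals were 4382299 to 41210334 counts. The smallest library, replicate 4 of wild type NC13-14, also held the largest share of ribosomal RNA (8.53%). All 8 genes listed as marks of the blastoderm were detected in all 34 libraries. In CRY2-ZLD minus wild type, 8, 2 and 6 of them were called lower by edgeR in NC10-14, NC10-12 and NC14 (medians of -4.46, -0.73 and -2.39 on the log2 scale), with 1 higher in NC10-12. The 7 follicle cell and yolk protein genes stayed at or under 3.59 CPM, and of 6 genes of later tissues the neuronal gene elav was the most abundant, at 3.09 to 297 CPM. Of the 4 of these 6 that were tested, 1 was called higher in each of the 3 windows. The summed level of the list of 6 was 153 to 285 CPM in CRY2-ZLD NC14 against 48.7 to 117 CPM in wild type NC14. In NC10-14 it was 7.46 to 59.5 CPM in CRY2-ZLD and 5.52 to 14.96 CPM in wild type, with overlapping groups. In NC10-12 the mean sum was lower in CRY2-ZLD, with 16.8 to 71.3 CPM against 32.01 to 131 CPM in wild type, also overlapping. Of 3 pole cell genes tested 1 was higher in NC10-14. The part of these markers in the results was not tested. The library names carry numbers that start again at 1 for each of 3 sets, one with the NC10-14, NC13-14 and unlit groups, one with NC10-12 and one with NC14. In the first of these, mitochondrial large ribosomal RNA made up 6.03% to 7.77% of counts in numbers 1 to 10. It made up 0.58% to 3.07% in numbers 11 to 18, and every group of that set has embryos in both parts. Each comparison of genotypes lies within a set. NC10-14, NC10-12 and NC14 lie in 3 different sets, so a difference between these windows cannot be told apart from the sets. The RNA of smg, a maternal transcript that is cleared around the maternal-to-zygotic transition, was at 1637, 1701 and 3755 CPM in CRY2-ZLD NC10-14 and at 1281, 1899 and 1044 CPM in wild type NC10-14. In CRY2-ZLD NC10-12 it was at 128, 151, 1457 and 709 CPM, against 86 to 136 CPM in wild type NC10-12. In NC13-14 it was at 110 to 287 CPM in CRY2-ZLD and 162 to 358 CPM in wild type. In NC14 it was at 72.5 to 109 and 62.7 to 121 CPM, and in unlit CRY2-ZLD at 80.7 to 132 CPM. Both genotypes of NC10-14 thus held more smg than the NC13-14, NC14 and unlit groups. The part of embryo stage in the NC10-14 results was not tested.

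Both short and long genes stood among the 47. Their summed exon length ran between 402 and 8682 bases, with a median of 1892 bases, close to the median of 1851.5 bases of the other 1336 CG genes at the same level. A single exon was found in 13 of the 47 (27.7%), against 11.8% of the other CG genes at that level, 21.5% of all CG genes and 27.7% of all genes. Under 1000 bases lay 16 of the 47, against 181 of the 1336 other CG genes at the level. A further 16 had 3000 bases or more, with up to 12 exons. The genes lay on 2L (11), 2R (12), 3L (13), 3R (7) and X (4).

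Per kilobase of exon, the level in wild type (mean over the NC10-14, NC10-12 and NC14 groups) covered a wide range. CG13427, a single exon of 440 bases on 2R (dm6 chr2R:20538877-20539316, minus strand), had 2386 CPM per kb. CG34214 followed with 1484 and CG4440 with 1171 CPM per kb, both with 2 exons. The median of the 47 was 47.3 CPM per kb, and CG44837, whose 5 exons hold 5460 bases, was lowest at 1.37 CPM per kb. The 13 single-exon genes had a median of 133 CPM per kb and the 34 with more exons one of 24.9 CPM per kb.

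In the groups that chose them, the values are a description only. CG10035 (dm6 chr3R:12380869-12382691) had 22.9, 47.7, 41.3 and 51.4 CPM in CRY2-ZLD embryos lit in NC13-14, against 1481, 1234, 1267 and 1025 CPM in wild type of the same window and 1356, 1759, 2464 and 1852 CPM without light. CG12581, the gene with the largest fall among the 47 by the smaller of its 2 gaps, had 4.91, 12.3, 9.04 and 8.63 CPM in lit CRY2-ZLD, against 451, 390, 436 and 285 CPM in wild type. The lit CRY2-ZLD embryos were the low ones in both genes. Over the 47 genes the median log2 difference of mean CPM was -3.03 against wild type and -2.55 against unlit CRY2-ZLD. All 47 would be called lower in both comparisons, where 8.94% and 6.41% of all tested genes are, and this follows from the choice. Just inside the limit stood CG10283 (1.54), CG8960 (1.60) and CG30089 (1.68), and just outside CG15629 (1.48), CG18269 (1.47) and CG2915 (1.40), in log2 of the smaller gap.

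**Figure D1:**
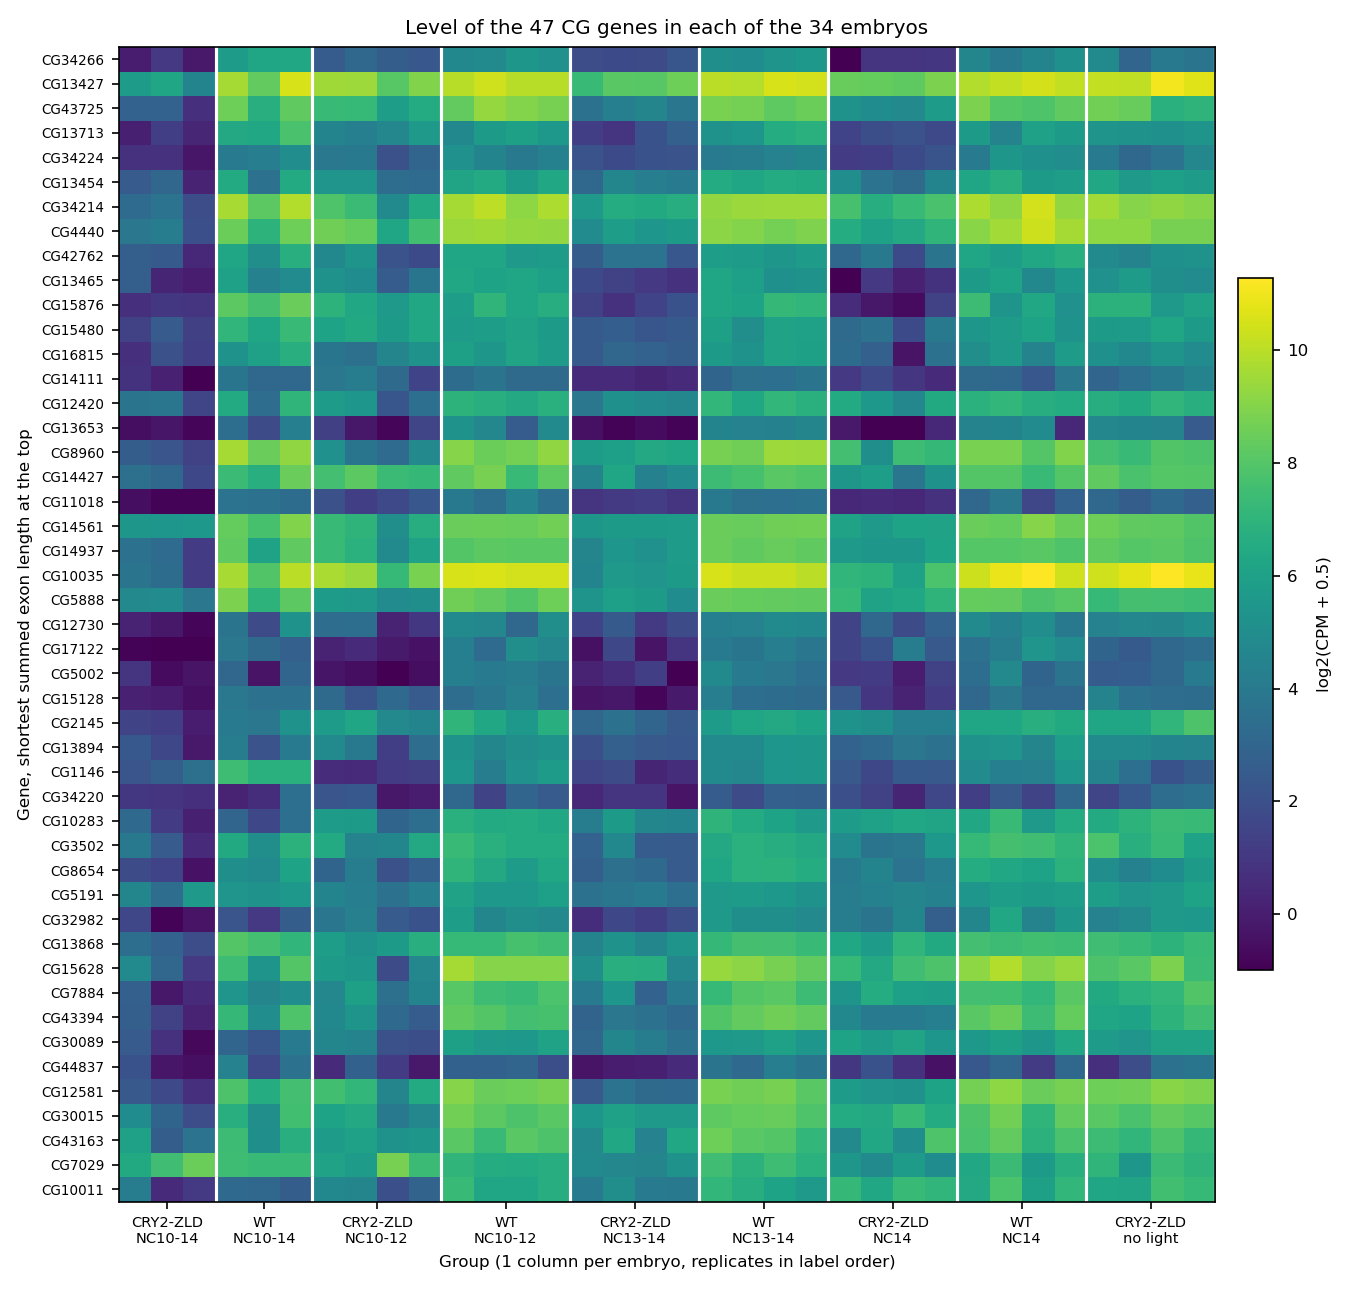
Each row is one of the 47 genes, ordered by summed exon length, and each column 1 embryo, grouped by genotype and light window. Colour is log2(CPM + 0.5). The CRY2-ZLD groups lit in NC10-14, NC13-14 and NC14 are darker than wild type in most rows, and the last 4 columns, without light, are near wild type.

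The fusion without light was near wild type lit in NC13-14 for most of the genes. Unlit CRY2-ZLD minus wild type NC13-14 had a median log2 difference of mean CPM of -0.28, with 16 genes above 0 and 5 at or below -1. CG1146 lay lowest at -1.69, with 22.0, 10.8, 3.74 and 5.56 CPM in unlit CRY2-ZLD against 27.8, 24.8, 42.7 and 45.2 CPM in wild type. CG8654 (-1.58) and CG43394 (-1.52) followed. CG8960 came next at -1.45, with 196, 155, 245 and 230 CPM in unlit CRY2-ZLD against 433, 397, 719 and 700 CPM in wild type. These groups took part in the choice and were not tested. The choice asked for a level in unlit CRY2-ZLD and a fall from it, so it left out genes already low without light.

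Light throughout NC10-14 was a window the choice did not use, and here nearly all of the genes were low in CRY2-ZLD. By edgeR's quasi-likelihood test 42 of the 47 were called lower (adjusted p under 0.05) and 0 higher, where 7.58% of the 9519 genes tested were called lower and 7.82% higher. Of the other CG genes at the level, 6.81% were called lower. Over the 47 the median log2 difference was -4.34, against 0.056 over all genes tested. With scaling on ribosomal protein genes, 38 of the 47 were lower, beside 446 lower and 802 higher of all genes, where TMM gave 722 and 744. In 35 of the 47 every CRY2-ZLD embryo lay below every wild-type embryo, against 11.2% of all genes. At an unadjusted p under 0.05, 44 were lower and 0 higher, and DESeq2 called 0 higher. All 47 passed the filter on low counts, to which the groups that chose them also contributed. Leaving out CRY2-ZLD replicate 2 or 4 or wild-type replicate 1 or 4 ended the call of 5 genes (CG30089, CG32982, CG43163, CG44837 and CG5002, adjusted p 0.0528 to 0.187).

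The most abundant of these RNAs were lower in every CRY2-ZLD embryo than in any wild-type embryo. CG10035 had 12.7, 9.57 and 1.67 CPM in CRY2-ZLD, against 816, 245 and 1022 CPM in wild type, a log2 difference of -6.64 ± 0.64 (SE, n = 3 each, edgeR adjusted p = 3.66e-09). The highest CRY2-ZLD embryo was far below the lowest wild-type embryo. CG34214 had 9.32, 12.3 and 3.23 CPM in CRY2-ZLD, against 805, 292 and 919 CPM in wild type, a log2 difference of -6.51 ± 0.60. CG13427 had 55.4, 77.5 and 22.7 CPM, against 778, 320 and 1498 CPM in wild type, with a log2 difference of -4.21 ± 0.44. Of the 8 most abundant genes CG14561 had the smallest difference, with 45.3, 43.3 and 45.8 CPM in CRY2-ZLD against 336, 207 and 494 CPM in wild type and log2 -3.10 ± 0.32. In each of these 4 genes wild-type replicate 2 was the lowest wild-type embryo.

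The lowest fitted differences in NC10-14 belonged to CG17122, CG15876, CG8960 and CG11018. CG17122, a single exon inside gogo, the gene of an axon guidance receptor, had 0.0457, 0 and 0 CPM in CRY2-ZLD against 14.1, 8.98 and 6.33 CPM in wild type. That is 1 count against 706 counts, a ratio of 660-fold lower with a 95% counting interval of 118 to 26108, which covers counting error only. CG15876 (dm6 chr3L:4694205-4694845) had 1.10, 1.48 and 1.34 CPM in CRY2-ZLD against 286, 198 and 355 CPM in wild type (log2 -7.88 ± 0.72, edgeR adjusted p = 1.52e-09). Its 3 lit CRY2-ZLD embryos were alike and far below wild type. CG8960 had 5.71, 4.25 and 2.07 CPM in CRY2-ZLD against 776, 351 and 605 CPM in wild type (log2 -7.36 ± 0.59). CG11018 had 0.183, 0.0462 and 0.0362 CPM in CRY2-ZLD against 12.2, 11.6 and 9.78 CPM in wild type (log2 -7.11 ± 0.59).

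Not called lower in NC10-14 were CG7029, CG10011, CG5191, CG10283 and CG34220. CG7029, with 8549 exon bases, had 87.4, 184 and 372 CPM in CRY2-ZLD against 176, 162 and 152 CPM in wild type (log2 0.29 ± 0.55, edgeR adjusted p = 0.776). The groups overlapped, and leaving out CRY2-ZLD replicate 4 gave -0.36. CG10011, the longest of the genes at 8682 exon bases, had 17.4, 0.924 and 1.63 CPM in CRY2-ZLD against 8.58, 8.51 and 5.66 CPM in wild type (log2 -0.45 ± 0.66). It was already low in this wild type, which had a mean of 7.58 CPM, against 102 CPM in wild type NC10-12, and its value rested on CRY2-ZLD replicate 1, without which it was -2.57 with an adjusted p of 0.00869. CG10283 moved in the same way, with 8.81, 1.66 and 0.544 CPM in CRY2-ZLD against 7.47, 2.71 and 10.5 CPM in wild type, and with -2.73 and an adjusted p of 0.00873 without that embryo. CG5191 had 24.3, 10.1 and 47.2 CPM in CRY2-ZLD against 41.2, 38.3 and 46.9 CPM in wild type (log2 -0.77 ± 0.32, edgeR adjusted p = 0.0962), and without CRY2-ZLD replicate 4 it was -1.47 with an adjusted p of 0.000593. CG34220, at a mean of 4.78 CPM the least abundant of the 47 in wild type, had 1.46, 1.39 and 1.12 CPM against 0.646, 1.03 and 10.6 CPM in wild type.

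**Figure D2:**
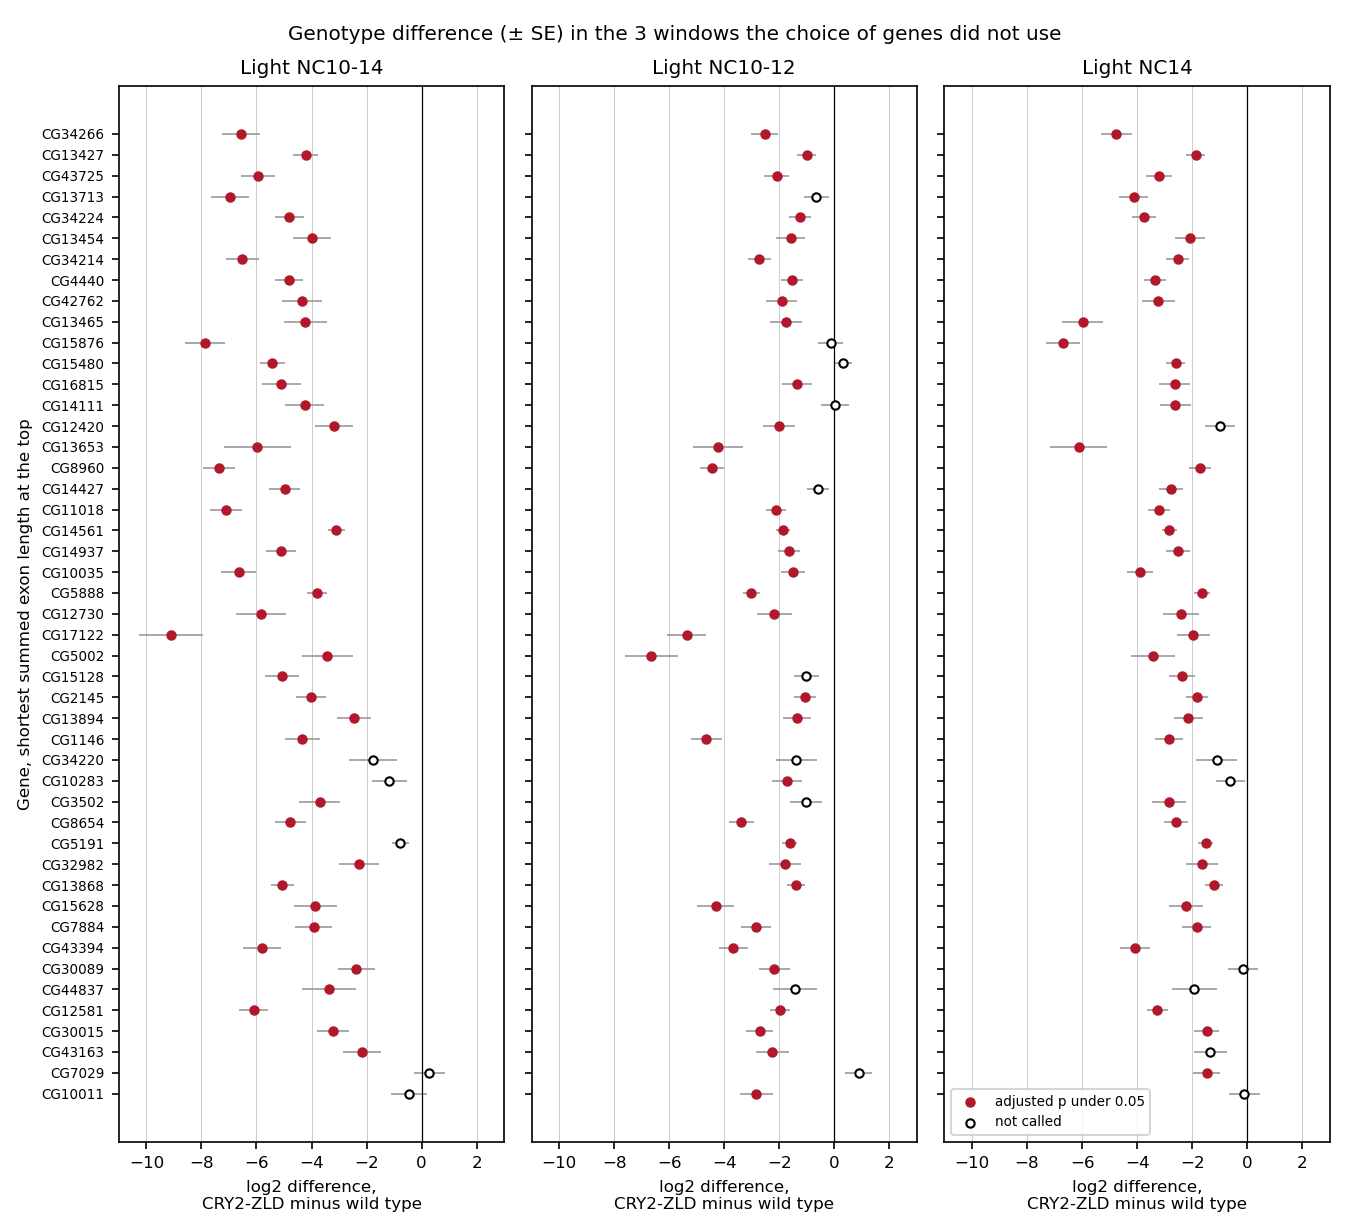
Points are the log2 differences, CRY2-ZLD minus wild type, of the 47 genes in the 3 windows the choice did not use, bars are ± SE from the edgeR fit, and genes are ordered by summed exon length. Filled points were called, 42, 37 and 40 of 47. All called points lie below 0.

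Light in NC10-12 ended before the window that chose the genes, and embryos were again collected in nuclear cycle 14. Here 37 of the 47 were called lower and 0 higher, where 16.5% of all tested genes were called lower and 16.9% higher, and 21.7% of the other CG genes at the level were lower. At an unadjusted p under 0.05, 38 were lower and 0 higher, and DESeq2 called 0 higher. Over the 47 the median log2 difference was -1.79, against -0.014 over all genes. With scaling on ribosomal protein genes 27 of the 47 were lower, beside 886 lower and 1755 higher of all genes, where TMM gave 1567 and 1613. In 36 of the 47 the groups were fully apart with CRY2-ZLD below, against 13.9% of all genes. CRY2-ZLD replicates 3 and 4 had the lowest summed CPM of the 47 genes (1715 and 2638, against 4273 and 3836 in replicates 1 and 2 and 8930 to 10741 in wild type) and the highest smg, and the part of these embryos' state in the result was not tested. Without them and 3 more libraries set apart in earlier work (wild type NC10-14 replicate 2, NC13-14 replicate 4 and NC14 replicate 3), 24 were called lower. Each of the 8 embryos, left out in turn, ended 1 or more calls, of 9 genes in all (CG10283, CG13427, CG13454, CG13465, CG13894, CG16815, CG2145, CG32982 and CG34224, adjusted p 0.0519 to 0.133).

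CG10035 had 840, 684, 147 and 446 CPM in CRY2-ZLD NC10-12, against 1494, 1527, 1386 and 1387 CPM in wild type (log2 -1.50 ± 0.44, n = 4 each, edgeR adjusted p = 0.00829). The groups were apart, but the adjusted p was 0.077 without the libraries set apart. CG13427 had 747, 706, 269 and 487 CPM against 995, 1325, 1010 and 992 CPM in wild type (log2 -1.003 ± 0.34, edgeR adjusted p = 0.0222), a call lost without CRY2-ZLD replicate 3 (-0.80, adjusted p 0.0946) or without wild-type replicate 2 (-0.89, adjusted p 0.0658). CG15628 and CG8960 were also apart between the genotypes. CG15628 had 50.4, 45.3, 3.17 and 25.0 CPM in CRY2-ZLD against 783, 521, 524 and 535 CPM in wild type (log2 -4.32 ± 0.68, edgeR adjusted p = 1.87e-05). CG8960 had 36.9, 13.1, 9.20 and 27.2 CPM in CRY2-ZLD against 526, 361, 413 and 598 CPM in wild type (log2 -4.46 ± 0.44).

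The lowest differences in this window were those of CG5002 and CG17122. CG5002 had 0.306, 0.180, 0 and 0.180 CPM in CRY2-ZLD against 19.0, 16.2, 17.2 and 13.2 CPM in wild type (log2 -6.65 ± 0.96, edgeR adjusted p = 4.96e-06). CG17122 had 0.612, 0.856, 0.437 and 0.252 CPM in CRY2-ZLD against 19.0, 9.23, 32.9 and 25.4 CPM in wild type (log2 -5.37 ± 0.71). CG1146, inside Svil, which encodes an actin-binding protein of the supervillin family, had 0.969, 0.947, 1.78 and 2.01 CPM in CRY2-ZLD against 43.8, 17.3, 36.4 and 54.7 CPM in wild type (log2 -4.65 ± 0.57). In all of these genes each CRY2-ZLD embryo was below each wild-type embryo.

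The genes at the other end of this window had RNA near or above the wild-type level. CG15480, a single exon of 656 bases on 2L, had 68.0, 88.4, 51.7 and 78.1 CPM in CRY2-ZLD against 55.0, 56.5, 67.7 and 51.2 CPM in wild type (log2 0.31 ± 0.33, edgeR adjusted p = 0.516). CG15876 had 120, 80.4, 49.3 and 82.4 CPM against 57.0, 130, 73.4 and 101 CPM in wild type (log2 -0.14 ± 0.46, edgeR adjusted p = 0.851). CG14111 had 14.3, 17.2, 8.91 and 2.23 CPM against 9.53, 12.9, 8.85 and 9.08 CPM in wild type (log2 0.015 ± 0.51). The groups overlapped in all 3. CG13713 was not called either, with 22.4, 19.3, 25.1 and 47.8 CPM in CRY2-ZLD against 26.0, 51.0, 62.8 and 46.2 CPM in wild type (log2 -0.65 ± 0.45, edgeR adjusted p = 0.283). CG7029 had 67.9, 54.1, 428 and 163 CPM in CRY2-ZLD against 128, 98.0, 93.9 and 98.9 CPM in wild type (log2 0.88 ± 0.48). Replicate 3 set its direction: without it the value was -0.090, and without CRY2-ZLD replicate 2 it was 1.20 with an adjusted p of 0.0447.

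**Figure D3:**
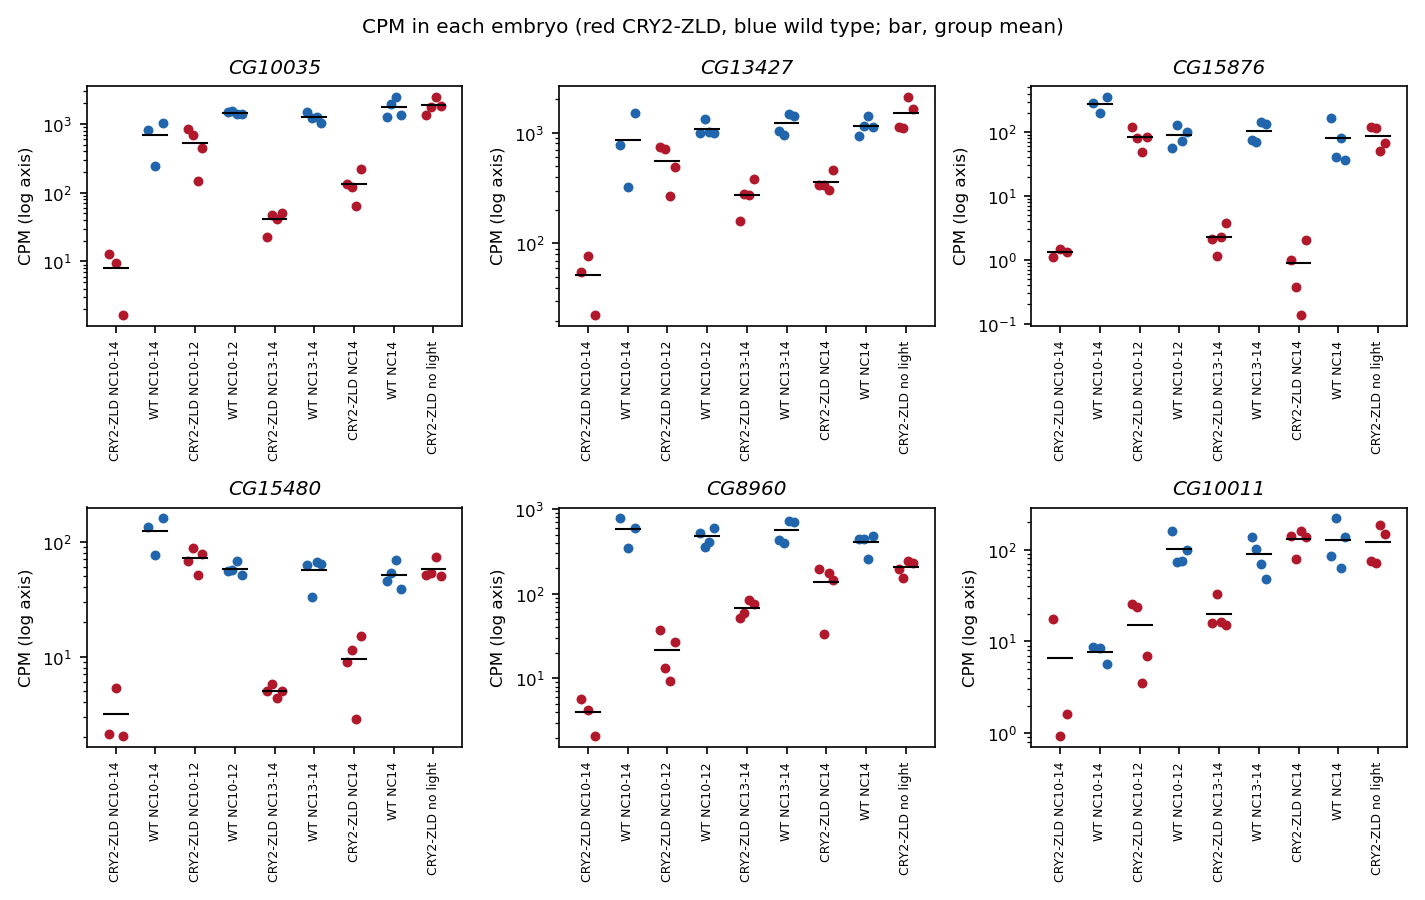
Points are the CPM of 6 of the genes in each embryo on a log axis, red for CRY2-ZLD and blue for wild type, and bars are group means. CG15876 and CG15480 are at the wild-type level after light in NC10-12 and low after light in NC10-14, NC13-14 or NC14, CG8960 is lower after NC10-12 than after NC14, and CG10011 is low in both genotypes in NC10-14.

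After light in NC14 alone, the latest window, most of the genes were low in CRY2-ZLD too. By edgeR 40 of the 47 were called lower and 0 higher, where 9.65% of all tested genes were called lower and 7.79% higher, and 7.86% of the other CG genes at the level were lower. At an unadjusted p under 0.05, 42 were lower and 0 higher, and DESeq2 called 0 higher. Values of all 47 were negative, with a median log2 difference of -2.52, against -0.026 over all genes. With scaling on ribosomal protein genes 33 of the 47 were lower, beside 462 lower and 1472 higher of all genes, where TMM gave 919 and 742, and the values of CG10011 and CG30089 were above 0 (0.24 and 0.30). In 37 of the 47 every CRY2-ZLD embryo lay below every wild-type embryo, against 6.16% of all genes. Leaving out CRY2-ZLD replicate 1, 2 or 4 or wild-type replicate 2, 3 or 4 ended the call of 5 genes (CG17122, CG30015, CG32982, CG7029 and CG7884, adjusted p 0.0534 to 0.157).

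The low end of this window was held by short genes. CG15876 had 0.979, 0.374, 0.137 and 2.05 CPM in CRY2-ZLD NC14, against 169, 40.7, 81.4 and 36.3 CPM in wild type (log2 -6.70 ± 0.61, n = 4 each, edgeR adjusted p = 2.98e-09). CG13653 had 0.392, 0, 0 and 0.790 CPM against 22.4, 22.7, 29.5 and 0.804 CPM in wild type (log2 -6.12 ± 1.04), where wild-type replicate 4 was nearly as low as the CRY2-ZLD embryos. CG13465 had 0, 1.56, 0.596 and 1.26 CPM against 51.0, 69.6, 26.3 and 45.9 CPM in wild type (log2 -5.98 ± 0.74). The groups did not overlap in any of these genes. CG34266, 402 bases long and inside axo, had 0, 1.31, 1.33 and 1.42 CPM in CRY2-ZLD against 24.2, 15.1, 22.4 and 35.6 CPM in wild type (log2 -4.76 ± 0.56). CG10035 had 133, 121, 64.7 and 219 CPM in CRY2-ZLD against 1279, 1939, 2478 and 1341 CPM in wild type (log2 -3.89 ± 0.48). CG4440 had 95.1, 64.6, 84.9 and 129 CPM against 540, 753, 1275 and 784 CPM in wild type (log2 -3.35 ± 0.42).

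At the other end, CG10011, CG30089, CG10283 and CG12420 were not called in NC14. CG10011 had 142, 79.4, 158 and 136 CPM in CRY2-ZLD against 84.8, 219, 62.6 and 137 CPM in wild type (log2 -0.10 ± 0.55, edgeR adjusted p = 0.931). CG30089 had 68.1, 54.3, 72.3 and 43.6 CPM against 46.8, 62.8, 44.5 and 79.1 CPM in wild type (log2 -0.14 ± 0.54), also with overlapping groups. CG10283 had 55.1, 64.9, 80.0 and 71.1 CPM against 82.0, 153, 49.4 and 93.9 CPM in wild type (log2 -0.62 ± 0.53). All 3 have over 3000 exon bases and all 3 were low in wild type NC10-14. CG12420 was just apart, with 90.9, 45.6, 25.0 and 88.7 CPM in CRY2-ZLD against 112, 137, 100 and 92.4 CPM in wild type (log2 -0.99 ± 0.56, edgeR adjusted p = 0.234). CG7029 was called here (44.1, 28.5, 55.5 and 30.4 CPM against 78.3, 167, 51.5 and 103 CPM in wild type, log2 -1.47 ± 0.49, edgeR adjusted p = 0.0342), with overlapping groups, and without CRY2-ZLD replicate 1, 2 or 4 or wild-type replicate 2 or 4 its adjusted p was 0.0642 to 0.109.

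Across the 3 windows, 31 of the 47 were called lower in each. The share of all tested genes called lower in all 3 was not counted. It cannot exceed the 7.58% called lower in NC10-14, or 6.81% for the other CG genes at the level. For the patterns below, the shares over all genes were not counted either. Called in NC10-14 and NC14 but not in NC10-12 were CG13713, CG14111, CG14427, CG15128, CG15480, CG15876 and CG3502. CG12420, CG30089 and CG43163 were called in NC10-14 and NC10-12, CG5191 in NC10-12 and NC14, CG10011 and CG10283 in NC10-12 only, CG44837 in NC10-14 only and CG7029 in NC14 only. CG34220 was called in none. A call in one window and not in another is no test of their difference, which follows.

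The difference between the genotype effects of 2 windows was tested as an interaction in the same edgeR model. The effect in NC10-14 was more negative than in NC10-12 for 22 of the 47 and less negative for 0, where 4.84% and 3.92% of all tested genes were called in these directions. Of the other CG genes at the level, 7.93% and 6.51% were. The choice asked for a fall under light in NC13-14, cycles within NC10-14 and outside NC10-12, so it could favour the more negative direction. At an unadjusted p under 0.05, 29 were more negative and 2 less, and DESeq2 called 2 less negative. The largest difference was that of CG15876 (-7.74 ± 0.81), which was at the wild-type level in one window and nearly absent in the other. CG13713 (-6.32 ± 0.77), CG15480 (-5.73 ± 0.56) and CG10035 (-5.14 ± 0.70) followed. CG11018 had -4.98 ± 0.66 and CG13868 -3.67 ± 0.50. Wild type itself differed between these windows. Its log2 difference of mean CPM, NC10-14 minus NC10-12, was 1.63 for CG15876, 1.42 for CG13713 and 1.09 for CG15480. It was -1.06 for CG10035, -0.35 for CG11018 and 0.18 for CG13868. The part of the wild-type level in these differences was not tested.

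The effect in NC14 was more negative than in NC10-12 for 10 of the 47 and less negative for 4, against 2.98% and 1.87% of all tested genes. Of the other CG genes at the level, 3.44% and 2.32% were called in these directions. Here too the choice could favour the more negative direction, since NC14 lies within NC13-14. The 10 were CG10035, CG13465, CG13713, CG14111, CG14427, CG15480, CG15876, CG34224, CG4440 and CG7029, and the 4 were CG10011, CG17122, CG5888 and CG8960. CG15876 had -6.56 ± 0.74 (edgeR adjusted p = 5.07e-06), CG13465 -4.22 ± 0.89, CG13713 -3.47 ± 0.66, CG15480 -2.91 ± 0.48 and CG34224 -2.49 ± 0.56. CG8960 stood on the other side with 2.73 ± 0.55: it had 197, 33.6, 178 and 144 CPM in CRY2-ZLD NC14, against 441, 447, 256 and 487 CPM in wild type, and was thus less low than after NC10-12. Of these 14 genes, 8 lost the call when some single embryo was left out, and CG13465, CG13713, CG15480, CG15876, CG34224 and CG8960 did not. The counts of 10 and 4 were 4 and 2 with scaling on ribosomal protein genes and 3 and 1 when only the 6 groups the choice did not use were fitted, and the count of 4 was 1 without the 5 libraries set apart. The count of 10 became 5 without wild-type NC10-12 replicate 1 or without CRY2-ZLD NC14 replicate 1, and 6 without CRY2-ZLD NC14 replicate 3. The count of 4 became 1 without CRY2-ZLD NC10-12 replicate 3 or 4, and 2 without wild-type NC10-12 replicate 1 or 4, CRY2-ZLD NC14 replicate 1, 3 or 4, or wild-type NC14 replicate 1, 3 or 4.

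Light over all of NC10-14 had a more negative effect than light in NC14 alone for 14 of the 47 and a less negative one for 0, against 1.48% and 1.19% of all tested genes (27 and 1 at an unadjusted p under 0.05, and 0 less negative by DESeq2). CG17122 had the largest difference, -7.17 ± 1.33, and rested on the 1 count above. CG8960 had -5.64 ± 0.64, CG34214 -3.98 ± 0.65, CG11018 -3.91 ± 0.67, CG13868 -3.85 ± 0.50 and CG15480 -2.82 ± 0.53. CG13868 illustrates the pattern: it had 10.2, 6.70 and 3.19 CPM in CRY2-ZLD NC10-14 against 254, 196 and 136 CPM in wild type, and 78.0, 55.0, 134 and 87.1 CPM in CRY2-ZLD NC14 against 196, 172, 187 and 175 CPM in wild type. Some single embryo ended the call of 6 of the 14 (CG10035, CG13427, CG13713, CG14937, CG15128 and CG43725). The count of 14 became 8 without wild-type NC10-14 replicate 4 and 9 without CRY2-ZLD NC10-14 replicate 4. It became 6 when only the groups compared were fitted.

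Exon length went along with the size of the effect in NC10-14 and in NC14, and not in the same way in NC10-12. Over the 47 genes the Spearman correlation between summed exon length and the log2 difference was 0.54 in NC10-14, -0.24 in NC10-12 and 0.55 in NC14 (Pearson's r 0.57, -0.052 and 0.50), as a description across genes that share their libraries and whose counts rise with length. The 16 genes under 1000 bases had medians of -4.96, -1.56 and -3.22 in these windows, and 16, 12 and 15 of them were called lower. The 16 genes of 3000 bases or more had medians of -3.29, -2.08 and -1.57, and 12, 13 and 11 of them were called lower. Single-exon genes were called lower 13, 9 and 13 times of 13. The relation to length was not computed for other genes, so it is not shown to be particular to the 47. Exon length also went with the wild-type level, NC10-14 minus NC10-12 (Spearman -0.45), and the part of this was not tested. The genotype effects of NC10-14 and NC14 went together over the 47 (Spearman 0.64), those of NC10-12 with neither (Spearman 0.064 with NC10-14 and -0.040 with NC14), and these pairs share no library.

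**Figure D4:**
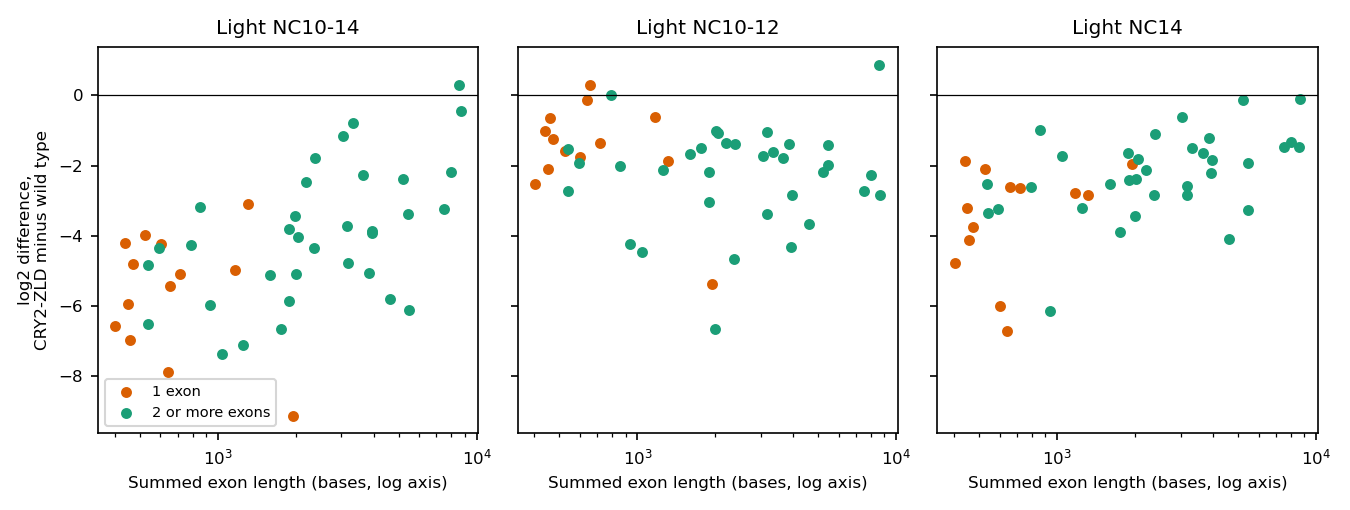
Each point is one of the 47 genes, by summed exon length on a log axis and log2 difference, CRY2-ZLD minus wild type, in the 3 windows the choice did not use. In NC10-14 and NC14 the points of long genes lie nearer to 0 (Spearman 0.54 and 0.55), and in NC10-12 they do not (Spearman -0.24).

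Several of the genes lie near or inside others, which matters because reads were counted without regard to strand. Inside the span of another gene lay 9 of the 47, and 9 shared exon bases with a neighbour. CG15876 and CG13713 are divergent single-exon genes 2755 bases apart, and both lie inside RhoGEF64C, with no further gene between them. Both were low in NC10-14 and NC14 and not called in NC10-12. RhoGEF64C itself had log2 differences of -3.02 ± 1.25, 0.94 ± 1.03 and -2.27 ± 1.16 in NC10-14, NC10-12 and NC14. It was not called in any of these windows. CG42762 and CG43394 both lie inside PAPLA1, a phospholipase gene, whose own log2 differences were -0.72, -0.67 and -1.27 in NC10-14, NC10-12 and NC14, the last one called. CG42762 and CG43394 were called lower in all 3. Svil, around CG1146, fell with it in all 3 windows (-2.42, -2.18 and -2.07, all called), and gogo, around CG17122, had -4.71 (adjusted p = 1.14e-06), -2.89 (adjusted p = 2.16e-05) and 0.30 (not called) by edgeR. The gene axo, around CG34266, had -4.02 (edgeR adjusted p = 1.14e-05), -0.17 and 0.044, the last pair not called. The part of reads from such surrounding genes in the values of the CG genes was not tested. The 29 genes that neither share exon bases nor lie inside another had medians of -4.23, -1.76 and -2.37, near those of all 47, and 28, 26 and 26 of them were called lower.

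Named genes of the early embryo, on lists chosen with earlier results of these data known, give a measure beside the CG genes. Of 7 cellularization genes tested, 7, 1 and 5 were called lower in NC10-14, NC10-12 and NC14, and 1 was higher in NC10-12. Of 5 genes of X counting and sex determination, 5, 3 and 3 were lower, and 1 was higher in NC10-12. Their summed level was 521 CPM in wild type NC10-12 replicate 3, against 2171 to 2476 CPM in the other replicates. In wild type NC13-14 it was 441 CPM in replicate 1, against 1823 to 2342 CPM in the others. The sex of the embryos is not known here, and its part in these counts was not tested. Of 17 genes of anterior-posterior patterning 14, 5 and 10 were lower. Of 16 genes of dorsal-ventral patterning 13, 4 and 8 were lower, with 1 higher in NC10-14 and 1 in NC10-12. Of 8 genes of the Bearded and E(spl) group 5, 3 and 5 were lower. In NC10-12 the share of these lists called lower ran between 1 of 7 and 3 of 5, against 37 of 47 for the CG genes, and whether this differs was not tested, since the CG genes were chosen by their fall. In NC10-12 the median log2 difference was -1.79 for the 47, -0.36 for cellularization, -1.97 for X counting and sex determination, -0.74 for anterior-posterior and -0.73 for dorsal-ventral patterning and -0.60 for the Bearded and E(spl) group.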

How the data were processed

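Poly(A) RNA of 34 single embryos was sequenced from TruSeq v2 libraries. The authors deposited raw counts per gene, made per the file headers in 1 featureCounts run with the FlyBase 6.20 annotation and no strand option, and a column of summed exon length in bases. Trimmomatic 0.36, HISAT2 2.1.0, featureCounts 1.5.3, DESeq2 1.14.1 and assembly dm6 are named in the submitters' processing notes. Exon counts, exon lengths and positions came from the exons deposited with the counts, and symbols from a list of gene names. Ensembl 115 gave the gene types, and all 47 genes had the same ends in it. No genome or promoter sequence was used here, so the planned motif search was not made.

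CPM for the choice and for printed values used column totals. Counts were fitted with edgeR 4.0.16 in R 4.3.3 (TMM scaling; filterByExpr with a minimum count of 10, quasi-likelihood test) with 1 coefficient per group, so that the 9 groups share the spread (common dispersion of 0.197, 25 residual and 5.47 prior degrees of freedom), and Benjamini-Hochberg adjustment over 9519 genes at 0.05. The fit was tested on simulated counts. Differences between windows were interaction contrasts. Correlations and structure have no test. The genes, lists and alternatives were chosen with earlier results of these data known.

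Values were given for the 8 genes with the highest mean CPM in wild type, the 4 lowest and 4 highest log2 differences in each window, up to 6 genes per difference between windows, the 3 genes on each side of the limit, and genes that neighbour each other; CG34220, CG44837 and further genes called in some windows only were named after their values were seen. Alternatives were other scalings, filters and sets of libraries, a replicate block, and DESeq2 1.42.0. Not every surrounding gene is reported here.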

Additional observations from a re-analysis of the deposited data

Results flagged for a closer look

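Within the 27 genes named by the rule, 189 groups of 4 embryos were checked for 1 embryo far from the other 3, and 15 were found; chance gives about 1 in 20 groups. Lower than the other 3 embryos were CG1146 in CRY2-ZLD NC14 replicate 2 (2.68 CPM, others 4.90 to 5.04), CG14561 in the same embryo (48.7, others 66.6 to 69.1), CG34266 in CRY2-ZLD NC14 replicate 1 (0, others 1.31 to 1.42), CG34224 in CRY2-ZLD NC13-14 replicate 2 (2.89, others 3.71 to 3.87), CG13653 in unlit CRY2-ZLD replicate 4 (5.27, others 22.0 to 25.4) and CG15480 in wild type NC13-14 replicate 2 (32.8, others 62.7 to 66.7). Higher in CRY2-ZLD were CG10011 in NC13-14 replicate 2 (32.8 CPM, others 15.2 to 16.4), CG17122 in NC14 replicate 3 (18.01, others 2.35 to 4.90) and CG15480 in unlit replicate 3 (73.8, others 50.5 to 53.5). Higher in wild type were CG11018 in NC13-14 replicate 1 (15.3, others 10.8 to 11.4), CG13427 in NC10-12 replicate 2 (1325, others 992 to 1010), CG14111 in the same embryo (12.9, others 8.85 to 9.53), CG15628 in NC10-12 replicate 1 (783.0, others 521 to 535), CG7029 in the same embryo (128, others 93.9 to 98.9) and CG14561 in NC14 replicate 3 (526, others 336 to 367).

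The genotype effect differed between windows by edgeR's interaction test in the following genes. NC10-14 minus NC10-12 gave -7.74 for CG15876, -6.32 for CG13713, -5.73 for CG15480, -5.14 for CG10035, -4.98 for CG11018 and -3.67 for CG13868. NC14 minus NC10-12 gave -6.56 for CG15876, -4.22 for CG13465, -3.47 for CG13713, -2.91 for CG15480, -2.49 for CG34224 and 2.73 for CG8960. NC10-14 minus NC14 gave -7.17 for CG17122, -5.64 for CG8960, -3.98 for CG34214, -3.91 for CG11018, -3.85 for CG13868 and -2.82 for CG15480, all on the log2 scale. The 3 windows lie in 3 library sets, from which the light cannot be told apart.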

How the results depend on the processing

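The counts of genes called lower (42, 37 and 40 in NC10-14, NC10-12 and NC14) stayed within 1.5 times under DESeq2 size factors (42, 37, 39), scaling on ribosomal protein genes (38, 27, 33), no filter (42, 37, 40), a mean of at least 5 CPM (42, 38, 39), DESeq2's Wald test (42, 38, 40), only the groups compared (28, 33, 38) and only the 6 groups the choice did not use (38, 31, 36). Ribosomal protein scaling moved the median of all genes by 0.28, 0.21 and 0.45. Without the 5 libraries set apart the counts were 42, 24 and 39. Leaving out 1 embryo at a time gave 37 to 44, 28 to 36 and 35 to 40 lower and, in NC10-12, 0 to 1 higher. A term for library numbers 1 to 10 against 11 to 18 gave 42 in NC10-14. Of the called genes 28, 23 and 32 were called under every alternative.

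Embryos of the same replicate number share only the number: their deviations from the group means correlated at -0.10 to 0.28, and not every embryo correlated best with its own number. With a replicate block the counts were 41, 37 and 38, and 20, 6 and 11 (more negative) with 3 less negative in NC14 minus NC10-12 for the differences.

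For the differences, single embryos left out gave 20 to 25 and 0 to 2 (NC10-14 minus NC10-12), 5 to 10 and 1 to 5 (NC14 minus NC10-12) and 8 to 19 (NC10-14 minus NC14). DESeq2 called 2 less negative in the first. In NC14 minus NC10-12, ribosomal protein scaling gave 4 and 2, only the 6 groups 3 and 1, and leaving out the 5 libraries 1 less negative. Only the groups compared gave 6 in NC10-14 minus NC14. The cause was not tested.

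Of the called genes 14, 14 and 8 lost the call under some alternative. Signs turned in genes not called in that window. In NC10-14, CG10011 became 0.058 with ribosomal protein scaling and ran between -2.57 and 0.12 with 1 embryo left out, and CG7029 between -0.36 and 0.75. In NC10-12, CG7029 became -0.94 without the 5 libraries and ran between -0.090 and 1.20 with 1 embryo left out. CG15876 became 0.092 with ribosomal protein scaling and ran between -0.32 and 0.093. CG14111 became -0.0066 with no filter, -0.029 at 5 CPM and -0.21 with the block, and ran between -0.26 and 0.34. In NC14, ribosomal protein scaling gave 0.24 for CG10011 and 0.30 for CG30089, and with 1 embryo left out they ran between -0.31 and 0.23 and between -0.27 and 0.073. The choice itself gave 64, 35, 42, 49 and 50 genes with a limit of 1, a limit of 2, 10 CPM, a pseudocount of 0.1 and TMM-scaled CPM, and 47 (46 shared) without wild type NC13-14 replicate 4. Depth limits genes of few counts, such as CG17122 with 1 count in CRY2-ZLD NC10-14.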

Other observations

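Wild type itself was not alike in all windows. The median log2 difference of mean CPM, wild type NC10-14 minus NC10-12, was -0.45 over the 47 genes, with a range of -3.67 to 1.78 and 16 genes at or below -1. CG10283, CG10011, CG32982, CG7884 and CG30089, with 3046 to 8682 exon bases, lay at or below -2; their means were 6.91, 7.58, 3.82, 32.4 and 9.44 CPM in wild type NC10-14, against 94.0, 102, 34.9, 209 and 56.5 CPM in wild type NC10-12. The Spearman correlation between exon length and this difference was -0.45 over the 47. NC10-14 and NC10-12 lie in different library sets, and the difference was not tested. Wild type NC13-14, which the choice used, lies in the same set as NC10-14. Its means were 84.1 CPM for CG10283, 89.0 for CG10011, 36.0 for CG32982, 212 for CG7884 and 50.2 for CG30089.

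Summed over the 47 genes, CRY2-ZLD embryos had 514 to 570 CPM in NC10-14, 1715 to 4273 in NC10-12, 777 to 1464 in NC13-14 and 1829 to 2912 in NC14, against 3432 to 9342, 8930 to 10741, 9098 to 10302 and 9347 to 11197 CPM in wild type of the same windows and 7979 to 10587 CPM in unlit CRY2-ZLD.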
